A study of Mus musculus with 6 samples.

Results

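The larger T-cell receptor beta (TCRB) clonotypes of splenic T follicular regulatory (Tfr) cells were compared with the clonotypes seen a single time. A clonotype was a distinct TCRB rearrangement of 87 bases, and its size was its deposited count summed over the samples of a mouse. The files do not say whether that count is of input DNA molecules (templates) or of reads, and it is called templates here. Clonotypes of 3 or more templates numbered 573 of 4247 over 3 mice, with 158 in mouse 1, 153 in mouse 2 and 262 in mouse 3. They were chosen by their summed template counts and are called larger clonotypes below, and the 2712 of a single template (835, 757 and 1120) are called single-template clonotypes. The 962 of 2 templates entered neither class.

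All 3 mice carried the Foxp3GFP genotype, in which GFP reports Foxp3. Tfr cells were sorted from the spleen, and each mouse has a superior and an inferior sample, words left undefined by the labels. No treatment, age or sex is given, and the cell type is named only as CD4 T cells. TCRB was read from genomic DNA with the immunoSEQ mouse kit at survey resolution, so the counts are of rearranged DNA and not of expression. The files hold receptor sequences only, so the Tfr label was not checked against Foxp3 or follicle markers. The superior samples held 667, 1095 and 1136 templates in mice 1, 2 and 3, and the inferior samples 1370, 920 and 1855.

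Tfr cells are regulatory T cells that express Foxp3, enter the B-cell follicle and restrain the germinal centre. The beta chain of their receptor is assembled in the thymus by joining 1 V, 1 D and 1 J segment, with bases trimmed and added at the junctions. The junction encodes the third complementarity-determining region (CDR3), the loop that lies over the presented peptide. Daughter cells of a T cell keep its rearrangement, so cells of a clone share a sequence. Residues 6 and 7 of the CDR3, counted from 1 at its conserved cysteine, sit near the tip of the loop, and hydrophobic residues there are known to favour binding to self peptides.

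The largest clonotypes of the mice show how the classes below are built, and 6 of the 12 that were named by size are printed as deposited. In mouse 1 the second largest, TRBV4 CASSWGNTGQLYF TRBJ2-2 with 15 templates, is not among those printed. Bases that encode the CDR3 are in capitals, from the cysteine to the end of the rearrangement, which stops before the codon of the last CDR3 residue.
Mouse 1, TRBV16 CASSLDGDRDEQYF TRBJ2-7: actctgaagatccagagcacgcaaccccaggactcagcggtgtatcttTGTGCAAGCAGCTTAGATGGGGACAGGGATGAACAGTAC
Mouse 1, TRBV3 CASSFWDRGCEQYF TRBJ2-7: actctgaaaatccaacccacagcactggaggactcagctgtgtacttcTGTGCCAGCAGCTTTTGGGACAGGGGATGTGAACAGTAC
Mouse 2, TRBV2 TRBJ2-7 with a CDR3 of 15 residues: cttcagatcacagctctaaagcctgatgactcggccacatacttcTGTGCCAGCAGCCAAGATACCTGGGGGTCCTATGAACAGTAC
Mouse 2, TRBV13-3 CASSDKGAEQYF TRBJ2-7: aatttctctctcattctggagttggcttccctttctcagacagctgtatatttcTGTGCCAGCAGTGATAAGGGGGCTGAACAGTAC
Mouse 3, TRBV31 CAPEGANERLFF TRBJ1-4: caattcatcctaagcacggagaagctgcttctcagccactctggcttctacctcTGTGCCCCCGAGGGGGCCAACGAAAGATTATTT
Mouse 3, TRBV2 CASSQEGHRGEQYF TRBJ2-7: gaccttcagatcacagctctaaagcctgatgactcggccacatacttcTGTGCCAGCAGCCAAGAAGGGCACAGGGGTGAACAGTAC

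The TRBV2 TRBJ2-7 clonotype of mouse 2 was the largest of all, with 45 templates, 10 of them superior and 35 inferior. It held 0.913% of the superior and 3.804% of the inferior templates of its mouse. The TRBV16 clonotype led mouse 1 with 5 superior and 13 inferior templates. Mouse 3 was led by the TRBV31 clonotype, with 6 and 8 templates. Its CDR3, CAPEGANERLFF, starts with CAP, while those of the other 5 start with CAS. The TRBV13-3 clonotype of mouse 2 had 13 superior and 3 inferior templates, the opposite order to the largest clonotype of that mouse. The TRBV2 TRBJ2-7 clonotype of mouse 3 had 11 templates, all in the inferior sample, and a count of 0 in the superior sample allows a share of up to 0.264%. Of these 12 largest clonotypes, 4 per mouse, 8 used TRBJ2-7 and 4 used TRBV2.

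Most larger clonotypes were small. Of the 573, 329 had exactly 3 templates, 101 had 4, 124 had 5 to 9 and 19 had 10 or more. Together they held 2407 of 7043 templates, 34.2%, with 33.6%, 34.7% and 34.2% in mice 1, 2 and 3. Those with exactly 3 templates (97, 89 and 143 in the mice) lie just inside the rule, and those with 2 (259, 279 and 424) just outside. TRBJ2-7 was used by 56.5% of the clonotypes of 3 templates and by 32.8% of those of 2. TRBV2 was used by 10.3% and 4.78%, and mean CDR3 length was 13.6 and 13.7 residues. TRBJ2-7 use thus differed most between 1, 2 and 3 templates, and it was 45.5% at 4 and 48.4% at 5 to 9. TRBV2 use differed most between 3 templates and more. TRBV2 made up 29.7% of the clonotypes of 4 templates (33.3%, 9.52% and 35.5% in the mice) and 33.9% of those of 5 to 9.

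**Figure D1:**
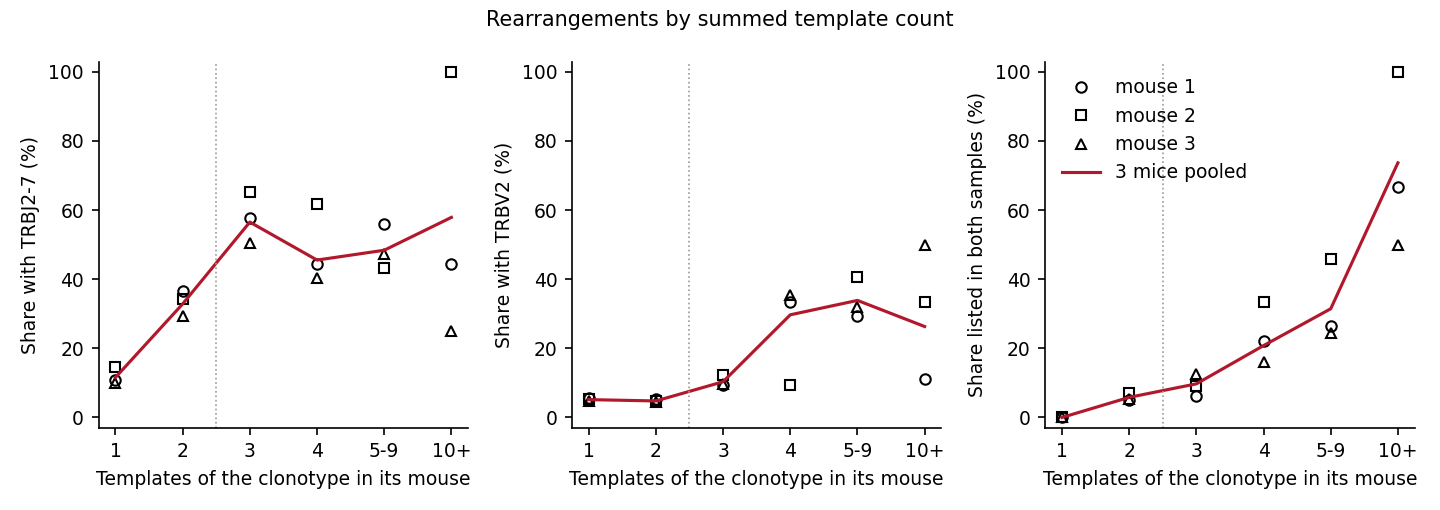
Share of clonotypes with TRBJ2-7 (left), with TRBV2 (middle) and listed in both samples of the mouse (right), in percent, by the clonotype's summed template count. Symbols are the 3 mice and the line pools them; the dotted line marks the lower limit of the larger class. Pooled TRBJ2-7 use was 11.6% at 1, 32.8% at 2, 56.5% at 3, 45.5% at 4 and 48.4% at 5 to 9 templates. TRBV2 use stayed near 5% up to 2 templates and was 29.7% at 4. The share in both samples reached 73.7% at 10 or more.

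J segment use differed most between the classes. TRBJ2-7, the last functional J segment of the second cluster (chromosome 6, 41543810 to 41543856), was used by 55.1%, 60.8% and 46.9% of the larger clonotypes of mice 1, 2 and 3. Among single-template clonotypes its share was 10.9%, 14.7% and 10.02%. Every mouse lay above all 3 single-template values. The means were 54.3% ± 6.95 against 11.9% ± 2.46 (SD, n = 3 mice), a log2 difference of 2.20 ± 0.12 (SE), with an adjusted p of 0.000236 in edgeR's quasi-likelihood test with the mouse as a block. Here and below, the SE of a log2 difference comes from a likelihood ratio fit and not from that test. It is not an SE over the 3 mice. Of the 12 J segments tested, 10 passed the adjusted threshold of 0.05 (83.3%), 3 with a higher share among larger clonotypes and 7 with a lower share. All larger clonotypes had a resolved J segment of these 12.

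The other J segments that were higher in the larger class came from the first cluster. TRBJ1-3 (chromosome 6, 41534323 to 41534372) made up 12.7%, 9.80% and 12.2% of larger clonotypes and 4.08%, 3.43% and 3.399% of single-template clonotypes, a log2 difference of 1.69 ± 0.24 (adjusted p = 0.000855, edgeR). TRBJ1-5 made up 5.70%, 3.92% and 6.49% against 1.68%, 1.59% and 2.06%, a log2 difference of 1.60 ± 0.35 (adjusted p = 0.00466, edgeR). For both, no larger-class value overlapped a single-template value. TRBJ1-4 averaged 6.22% ± 1.96 against 5.26% ± 0.159 and TRBJ1-2 4.62% ± 1.86 against 4.84% ± 0.601, and neither passed (adjusted p = 0.278 and 0.969, edgeR).

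TRBJ1-1, the first J segment after TRBD1 (chromosome 6, 41533864 to 41533911), was nearly missing from the larger class. It was used by 4 of 573 larger clonotypes, 0.633%, 0.654% and 0.763% in the mice, against 326 single-template ones, 10.7%, 11.2% and 13.6%. The log2 difference was -4.08 ± 0.41 (adjusted p = 0.000126, edgeR). TRBJ1-6 was used by 1 larger clonotype and 104 single-template ones, a ratio of shares of 0.0455 with a 95% exact counting interval of 0.00114 to 0.259. TRBJ2-5, the most used J segment of the single-template class at 17.2% ± 1.68, made up 2.71% ± 1.69 of the larger class (log2 difference -2.73 ± 0.27, adjusted p = 0.00497, edgeR). In mouse 2 it was 4.58% of larger clonotypes, above the 1.27% and 2.29% of mice 1 and 3.

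TRBJ2-4, TRBJ2-3, TRBJ2-2 and TRBJ2-1, which precede TRBJ2-5 in the second cluster, were lower in the larger class in all 3 mice. TRBJ2-4 was 2.05% ± 0.210 against 13.1% ± 0.459, with a log2 difference of -2.64 (adjusted p = 0.00017, edgeR). TRBJ2-3 was 2.94% ± 0.291 against 9.15% ± 1.02. TRBJ2-2 was 3.02% ± 1.64 against 7.57% ± 0.971, and TRBJ2-1 6.43% ± 1.83 against 9.50% ± 1.05, with adjusted p-values of 0.0338 and 0.0284 (edgeR). The second cluster therefore held both the J segment that was highest and 5 that were lower. Its summed share was 71.4% ± 5.22 of larger and 68.5% ± 0.587 of single-template clonotypes, higher in 2 of 3 mice (exact permutation p = 0.5).

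Shares of a class sum to 100%, so the high TRBJ2-7 share lowers the others. The median log2 difference of the 12 J segments was -0.88. TMM factors and DESeq2, which rescale to the middle of the segments, moved it by 0.56 and called 9 segments, 4 higher and 5 lower. Under both, TRBJ1-4 passed as higher, TRBJ2-2 no longer passed, and TRBJ2-1 changed sign to 0.012 and 0.020. Without mouse 3, 5 segments passed: TRBJ2-7, TRBJ1-3, TRBJ1-1, TRBJ2-3 and TRBJ2-4. These 5 passed in each of the 15 alternatives tried.

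**Figure D2:**
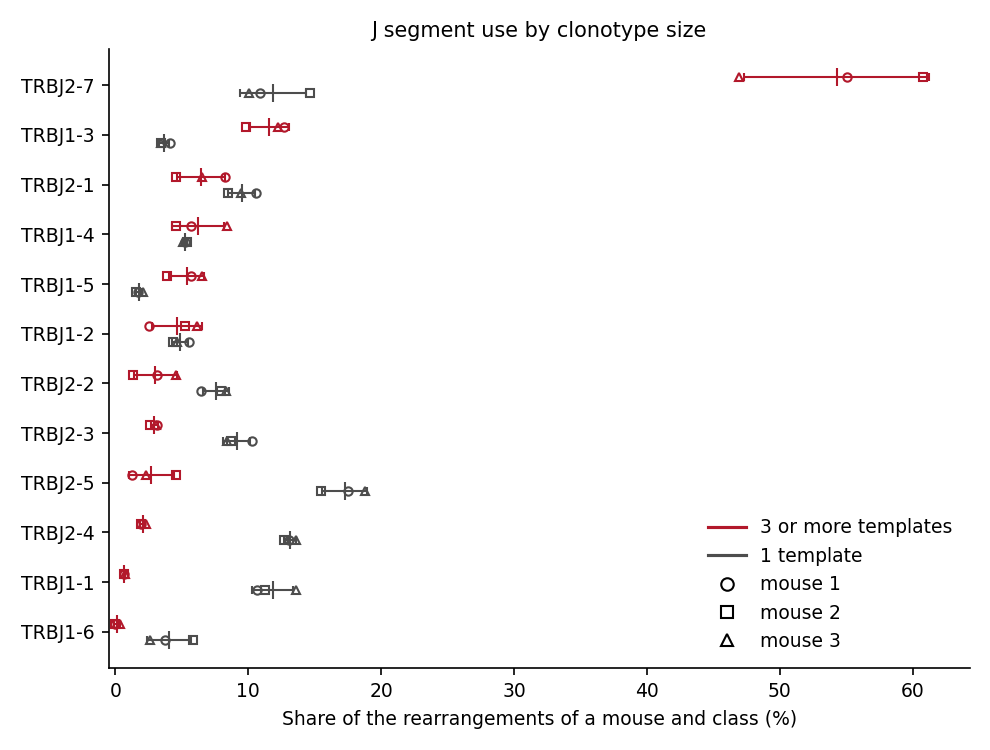
Share of each J segment among larger (red) and single-template (grey) clonotypes, in percent of the clonotypes of a mouse and class. Symbols are mice, ticks are means and bars are the SD of the 3 mice. TRBJ2-7 lies at 46.9% to 60.8% of larger clonotypes and 10.02% to 14.7% of single-template ones, while TRBJ1-1, TRBJ2-4 and TRBJ2-5 lie near the left edge only in the larger class.

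Read the other way, 32.5% of the 933 TRBJ2-7 clonotypes were larger ones (303; 31.9%, 31.0% and 34.2% in the mice). The share was 27.1% for TRBJ1-3 and 21.5% for TRBJ1-5, but 2.79% for TRBJ2-5 and 1.14% for TRBJ1-1. Mean templates per clonotype ran from 2.40 for TRBJ2-7 to 1.19 for TRBJ2-5 and 1.08 for TRBJ1-1. These values use the counts that chose the classes and are given as a description.

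Among larger clonotypes with TRBJ2-7, more ended in residues that this J segment encodes. The CDR3 ended in YEQYF in 227 of 303 (74.9%) larger clonotypes and in 200 of 314 (63.7%) single-template ones. The shares were 74.7%, 71.0% and 78.0% against 67.0%, 61.3% and 63.4%, higher in each mouse. The longer end SYEQYF was found in 28.4% and 21.0%. This difference was noticed in these data and was not tested.

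D segment use differed less. A D segment was resolved in 468 of 573 larger and 2166 of 2712 single-template clonotypes, leaving 18.3% and 20.1% unresolved. TRBD2, the D segment between the J clusters, made up 41.7%, 44.4% and 34.3% of the resolved larger clonotypes and 48.3%, 49.3% and 42.8% of the single-template ones. It was lower in the larger class in each mouse, but the groups overlapped. The log2 difference was -0.24 ± 0.11 and did not pass (adjusted p = 0.0683, edgeR). Of the 2 D segments 0 were called (0%) and 1, TRBD2, had an unadjusted p under 0.05; the likelihood ratio test called 0 and TMM factors 1. TRBD1 and TRBD2 sum to 100%, so they are 1 measurement.

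The D difference was also taken by J segment. Among TRBJ2-7 clonotypes TRBD2 made up 133 of 263 (50.6%) larger and 182 of 277 (65.7%) single-template ones, lower in each mouse at 50.7%, 51.3% and 50.0% against 72.3%, 60.4% and 65.3%. The log2 difference was -0.38 (adjusted p = 0.0209, edgeR). Over all clonotypes without TRBJ2-7 it was -0.82 (adjusted p = 0.00936, edgeR), but these mix the J clusters in unequal parts: 170 of 270 larger and 852 of 2398 single-template ones used the first cluster, where TRBD2 is rare. In the second cluster outside TRBJ2-7, TRBD2 made up 41 of 81 (50.6%) larger and 759 of 1228 (61.8%) single-template ones, and 52.0%, 61.9% and 42.9% against 63.6%, 66.0% and 57.9% in the mice. Adjusted p-values of TRBD2 ran from 0.00936 to 0.75 over 15 alternatives, and 4 passed. TRBD2 lies downstream of the first J cluster, so its direct joining to a TRBJ1 segment would not be expected. It was nevertheless listed in 9 of 124 (7.26%) larger and 60 of 658 (9.12%) single-template clonotypes of that cluster, at 12.5%, 11.1% and 3.08% against 7.77%, 14.0% and 6.81% in the mice. D calls rest on few bases.

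TRBV2 was the V segment that differed most. TRBV2 (chromosome 6, 41047556 to 41047995) was used by 16.5%, 19.6% and 21.0% of larger clonotypes and by 5.63%, 5.42% and 4.64% of single-template ones, with no overlap. The means were 19.0% ± 2.33 and 5.23% ± 0.519, a log2 difference of 1.898 ± 0.20 (adjusted p = 3.41e-08, edgeR). It was the only 1 of 22 V segments tested that passed (4.55%), and 2 had an unadjusted p under 0.05. The 22 segments covered all larger clonotypes but 1, which used TRBV21. Without mouse 3, TRBV2 kept a log2 difference of 1.70 but its adjusted p was 0.114 and no V segment passed, while 3 had an unadjusted p under 0.05. Over 16 alternatives its adjusted p ran from 2.96e-19 to 0.114.

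The next V segments did not pass. TRBV3 made up 6.96%, 13.7% and 9.92% of larger clonotypes, against 8.86%, 9.25% and 10.6%. TRBV20 was 6.21% ± 2.81 against 4.83% ± 0.664 and TRBV26 4.35% ± 1.19 against 3.08% ± 0.292. TRBV26 was higher in 3 of 3 mice, with a log2 difference of 0.44 (adjusted p = 0.483, edgeR). TRBV1, at 5.34% ± 0.344 against 4.89% ± 1.08, overlapped between the classes.

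On the lower side, TRBV24 was 1.11% ± 0.689 of larger and 2.46% ± 0.726 of single-template clonotypes, with a log2 difference of -1.16 ± 0.55 (unadjusted p = 0.0313, adjusted p = 0.345, edgeR). TRBV19 made up 9.49%, 3.92% and 9.16% against 10.3%, 10.8% and 10.5%, lower in each mouse and lowest in mouse 2. TRBV4 was 1.62% ± 0.580 against 2.91% ± 0.509. TRBV31 (3.401% ± 2.33 against 4.89% ± 1.07), TRBV5 (6.42% ± 2.26 against 8.07% ± 0.302) and TRBV16 (4.09% ± 2.10 against 5.79% ± 0.264) overlapped between the classes. None of these passed, and the adjusted p was 0.483 for TRBV19, TRBV4, TRBV31, TRBV5 and TRBV16 alike (edgeR). The median log2 difference of the 22 V segments was -0.22.

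**Figure D3:**
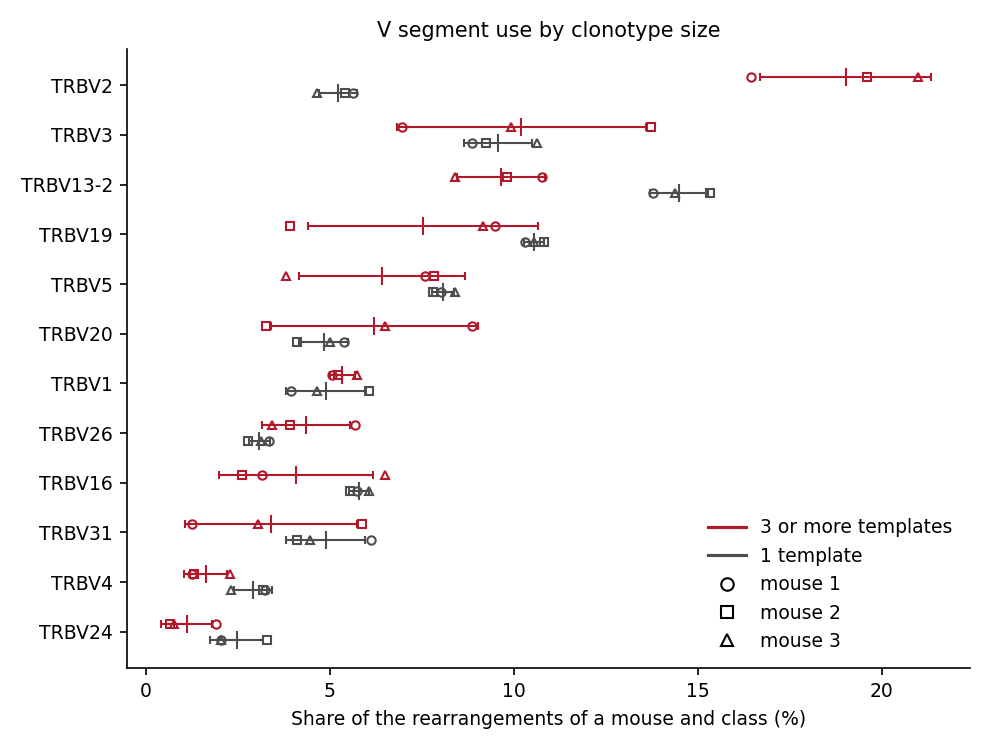
Share of the 12 named V segments among larger (red) and single-template (grey) clonotypes, in percent of the clonotypes of a mouse and class. Symbols are mice, ticks are means and bars are the SD of the 3 mice. TRBV2 lies at 16.5% to 21.0% of larger and 4.64% to 5.63% of single-template clonotypes, and the larger-class values of TRBV3, TRBV19, TRBV20 and TRBV31 spread widely between mice.

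TRBV2 and TRBJ2-7 were each frequent without the other. Of 60 clonotypes that joined TRBV2 to TRBJ2-7, 45 were larger ones (75.0%; 6 of 7, 14 of 19 and 25 of 34 in the mice). Of 237 with TRBV2 and another J segment 66 were (27.8%), and of 873 with TRBJ2-7 and another V segment 258 (29.6%). Of 3077 with neither, 204 were (6.63%). Within TRBJ2-7 clonotypes TRBV2 kept a log2 difference of 1.78 (adjusted p = 0.00122, edgeR), and without them 2.24 (adjusted p = 0.000433). Without TRBV2 clonotypes, TRBJ2-7 had a log2 difference of 2.26 (adjusted p = 0.000549) and 10 J segments passed.

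After TRBV2 with TRBJ2-7, the pairs with most larger clonotypes were TRBV3 with TRBJ2-7 (37 of 94), TRBV13-2 with TRBJ2-7 (29 of 161) and TRBV19 with TRBJ2-7 (27 of 108). Among pairs without TRBJ2-7, TRBV2 led with TRBJ1-4 (14 of 28), TRBJ1-2 (12 of 24) and TRBJ1-3 (11 of 18). The CDR3 of TRBV2 clonotypes started with CASSQ, the start that V segment encodes, in 73.0% of larger and 76.4% of single-template clonotypes.

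TRBV13-2 was the most used V segment of single-template clonotypes, and its difference depended on what was counted as 1 clonotype. It made up 10.8%, 9.80% and 8.40% of larger and 13.8%, 15.3% and 14.4% of single-template clonotypes, with no overlap. The log2 difference of -0.61 ± 0.21 did not pass (adjusted p = 0.483, edgeR). When rearrangements of the same V segment, CDR3 bases and J segment were merged within a mouse, it changed sign to 0.54 (adjusted p = 0.258). Many TRBV13-2 sequences were listed in several forms that differ before the CDR3, as in this clonotype of mouse 2, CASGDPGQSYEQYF with TRBJ2-7. The capitals mark a run of C in the V segment.
Form of 16 templates: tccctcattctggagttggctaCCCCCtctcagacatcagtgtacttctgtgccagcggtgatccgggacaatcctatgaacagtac
Form of 2 templates: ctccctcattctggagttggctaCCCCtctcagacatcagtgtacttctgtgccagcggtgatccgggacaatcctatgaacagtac
Form of 1 template: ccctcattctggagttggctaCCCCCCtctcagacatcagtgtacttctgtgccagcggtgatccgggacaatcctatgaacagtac
The main form had a run of 5 C, with 10 superior and 6 inferior templates. The form of 2 templates had a run of 4 and the printed form of 1 template a run of 6. Other forms of 1 template, not printed, had a run of 5 and differed elsewhere before the CDR3. All 54 larger TRBV13-2 clonotypes had a run of 5. Among the 392 single-template ones, 264 did (67.3%), 88 had a run of 4 (22.4%) and 39 a run of 6 (9.95%).

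Over all V segments, 147 of 2712 single-template clonotypes (5.42%) had the V segment, CDR3 bases and J segment of a larger clonotype of the same mouse. With a larger clonotype of another mouse, 3 did (0.11%). For TRBV13-2 the first share was 13.8% (54 of 392), for TRBV29 16.7%, for TRBV2 7.86% and for TRBV20 0.758%. Counting any form of more templates, including those of 2 templates, 306 of 2712 single-template clonotypes (11.3%) had a match. For TRBV13-2 it was 116 of 392 (29.6%). Of the larger clonotypes, 121 of 573 (21.1%) had other forms in their mouse, among them 38 of 54 with TRBV13-2 and 12 of 111 with TRBV2. Whether such forms are separate cells or misread copies was not tested. Merging left 722 larger and 2175 single-template clonotypes. TRBJ2-7 then had a log2 difference of 3.01 (adjusted p = 4.94e-05, edgeR), TRBV2 1.55 (adjusted p = 0.0275), and 8 J segments passed.

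CDR3s of larger clonotypes were shorter by 0.326 residues on average. Mean length was 13.5, 13.6 and 13.6 residues in the larger and 13.8, 13.9 and 13.9 in the single-template class of mice 1, 2 and 3. The means were 13.56 ± 0.0467 and 13.89 ± 0.0510 (SD, n = 3 mice), and the difference of -0.326 ± 0.0295 was negative in 3 of 3 mice. Swapping the classes within mice allows 8 arrangements, so the exact permutation test could not go below p = 0.25, the value it gave (0.438 after Benjamini-Hochberg adjustment over 7 measures). Both classes had a median of 14 residues and differed in the long tail. CDR3s of 16 or more residues made up 25 of 573 larger clonotypes (4.36%; 3.797%, 3.92% and 4.96% in the mice) and 319 of 2678 single-template ones (11.9%; 10.9%, 13.4% and 11.7%). At 12 or fewer residues the shares were 19.4% and 15.5%.

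The length difference was smaller when J use was held alike. Mouse 2 lay furthest from the others within TRBJ2-7 and with weighting to J use, and mouse 1 without TRBJ2-7. TRBJ2-7 clonotypes had short CDR3s in both classes, 13.3 residues in larger and 13.4 in single-template ones. Within TRBJ2-7 the difference was -0.06, 0.06 and -0.15 residues in the mice. Without TRBJ2-7 it was -0.19, -0.06 and -0.08, a mean of -0.11. With the single-template clonotypes weighted to the J use of the larger ones it was -0.165, 0.0134 and -0.170 in the mice, a mean of -0.107 (exact p = 0.5). Without mouse 2 that mean was -0.168. The largest single shift among J segments with 10 or more larger clonotypes was that of TRBJ2-2, 13.7 against 14.6 residues, and TRBJ1-4 differed by -0.71 residues.

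**Figure D4:**
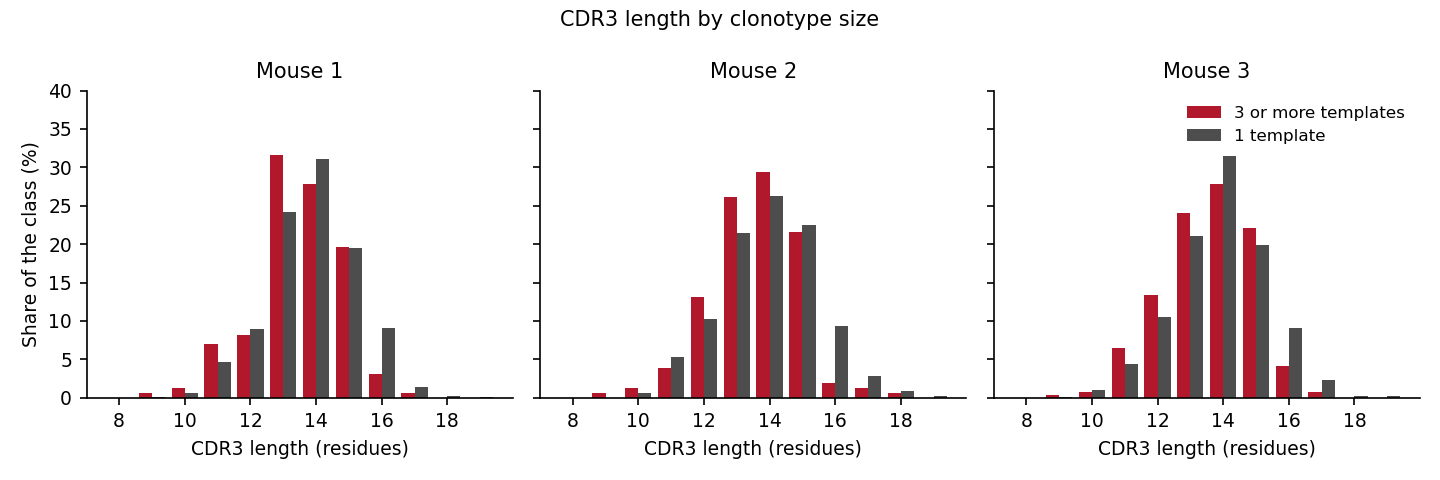
Distribution of CDR3 length in residues among larger (red) and single-template (grey) clonotypes of each mouse, in percent of the class. In each mouse the red bars exceed the grey ones at 13 residues and the grey bars exceed the red ones at 16, and 16 or more residues were found in 4.36% of larger and 11.9% of single-template clonotypes over the mice.

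At the tip of the CDR3 no residue passed the test, and mean hydropathy was slightly lower in the larger class. Kyte-Doolittle hydropathy, where higher means more hydrophobic, was averaged over positions 6 and 7. Mean hydropathy was -1.17, -1.20 and -1.22 in the larger and -0.997, -1.09 and -1.16 in the single-template class, lower in 3 of 3 mice. The difference was -0.117 ± 0.0539 (exact permutation p = 0.25, the smallest possible, adjusted 0.438). It was 0.00060 after merging, and 0.00925 when positions were counted from the residue after the cysteine. In superior samples alone it was -0.0113. A hydrophobic residue at position 6 or 7 was present in 24.1%, 26.1% and 24.4% of larger and 26.2%, 25.5% and 25.5% of single-template clonotypes, lower in 2 of 3 mice (exact p = 0.5).

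Of 37 pairs of position and residue tested with edgeR, 0 passed (0%) and 4 had an unadjusted p under 0.05. DESeq2 also called 0, with 1 unadjusted. Aspartate at position 6, an acidic residue, made up 17.1%, 20.9% and 19.1% of larger and 13.1%, 14.2% and 15.04% of single-template clonotypes. All 3 larger-class values lay above the single-template ones (unadjusted p = 0.0104, adjusted p = 0.387, edgeR). Tryptophan at position 6 was 2.13% ± 0.346 against 3.93% ± 0.517 (adjusted p = 0.391). Tyrosine at position 7 was 2.81% ± 1.65 against 1.35% ± 0.0902, higher in 2 of 3 mice (adjusted p = 0.391).

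Lysine at position 7, a basic residue, was found in 0 of 573 larger clonotypes, which allows a share of up to 0.524%, and in 19 of 2678 single-template ones. The pooled single-template share was 1.36 times that limit, a ratio that leaves out the counting error of the 19. The difference did not pass (unadjusted p = 0.0389, adjusted p = 0.391, edgeR). Methionine at position 6 was found in 0 larger and 11 single-template clonotypes, a share below that limit. Phenylalanine was found at position 6 in 1 larger and 10 single-template clonotypes and at position 7 in 5 and 9. Proline at position 7 was 3.32% ± 1.52 against 2.11% ± 0.365. Glycine, the most frequent residue at both positions, was 22.8% ± 3.37 against 24.8% ± 2.28 at position 6 and 35.9% ± 2.36 against 39.8% ± 0.957 at position 7.

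A clonotype of a single template cannot be in both samples of its mouse, so presence in both is a description of the larger class. Of the 573, 106 were listed in both samples (18.5%, 95% Wilson interval 15.5% to 21.9%), 25 of 158, 38 of 153 and 43 of 262 in the mice. A further 173 were listed only in superior and 294 only in inferior samples. In mouse 1 these were 40 and 93, in mouse 2 63 and 52, and in mouse 3 70 and 149. The sample with more templates listed more of them in each mouse. The share in both was 9.73% at 3 templates, 20.8% at 4, 31.5% at 5 to 9 and 73.7% at 10 or more. Of the 19 clonotypes of 10 or more templates, 5 were listed in a single sample, the inferior one in each case. They were 3 in mouse 1 and 2 in mouse 3, where the inferior sample was the deeper one. At 2 templates, just outside the class, 5.82% were in both. Intervals cover counting error only.

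To compare the classes without that limit, the class was set by the count in 1 sample and presence was read in the other sample of the mouse. Of clonotypes with 3 or more templates in the first sample, 16.5%, 23.0% and 9.14% were found in the other sample (mean of both directions in mice 1, 2 and 3). Of those with 1 template, 4.76%, 7.17% and 6.39% were. The means were 16.2% ± 6.93 and 6.11% ± 1.23, higher in 3 of 3 mice (exact permutation p = 0.25, adjusted 0.438). Mouse 3 had the smallest difference, 2.75 percentage points against 11.8 and 15.8 in mice 1 and 2.

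The same shares were taken by segment over the 547 entries with 3 or more templates in a sample, which differ from the 573 larger clonotypes chosen by summed count. Pooled over mice and directions, 30 of 302 TRBJ2-7 clonotypes with 3 or more templates in a sample were found in the other (9.93%), against 50 of 245 with other J segments (20.4%). By mouse the shares were 10.3%, 18.1% and 3.31% with TRBJ2-7 and 22.5%, 30.9% and 14.3% without, lower in each of the 3 mice. At 1 template the pooled shares were 5.99% and 5.81%. By mouse these were 2.15%, 11.2% and 3.45% with TRBJ2-7 and 4.49%, 6.38% and 6.41% without, lower with TRBJ2-7 in mice 1 and 3 and higher in mouse 2. For TRBV2 the pooled share at 3 or more templates was 7.96% (9 of 113) and for other V segments 16.4% (71 of 434). With 1 template the shares were 8.50% (13 of 153) and 5.68% (155 of 2727). TRBJ1-3 clonotypes gave 2 of 63 (3.17%) and TRBJ2-5 clonotypes 6 of 11, against 3 of 101 (2.97%) and 35 of 508 (6.89%) at 1 template. Pooled, TRBV2 and TRBJ1-3 clonotypes were found about as often at 1 template as at 3 or more. TRBJ2-7, TRBV2 and TRBJ1-3, all higher in the larger class, thus had lower pooled shares than all 547 entries (14.6%). The share was not taken for TRBJ1-5, which was also higher in the larger class. Template counts were not matched between segments, and these differences were not tested.

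**Figure D5:**
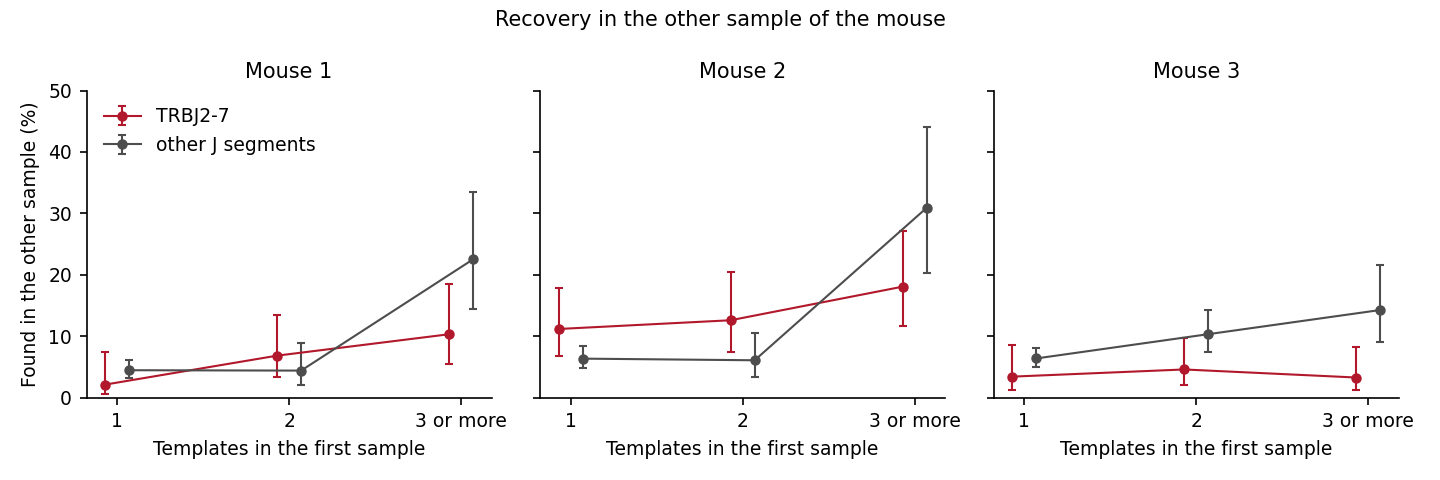
Share of clonotypes recovered from the mouse's other sample, in percent, by their template count in the first sample, for TRBJ2-7 (red) and other J segments (grey) in each mouse. Points pool both directions and bars are 95% Wilson intervals, which cover counting error only. At 3 or more templates TRBJ2-7 lies at 10.3%, 18.1% and 3.31% and other J segments at 22.5%, 30.9% and 14.3%.

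Few larger clonotypes were shared between mice. By V segment, CDR3 residues and J segment, 19 of 573 (3.32%, 95% Wilson interval 2.13% to 5.12%) were found in another mouse, against 43 of 2712 single-template ones (1.59%, 1.18% to 2.13%). By mouse the shares were 1.899%, 3.92% and 3.82% against 1.92%, 1.72% and 1.25%, higher in 2 of 3 mice (exact permutation p = 0.5). With the single-template class weighted to the J use of the larger one, the mean difference fell from 1.58 to 0.722 percentage points. In mice 1, 2 and 3 it was -0.017, 2.20 and 2.57 before and -1.19, 0.397 and 2.96 after, so it rose in mouse 3. With forms merged, the shares were 3.57%, 3.86% and 3.45% against 1.33%, 1.35% and 0.772%, higher in each mouse. In inferior samples only, the share was lower in mouse 1, at 0.917% against 2.01%. Of 30 clonotypes found in 2 or more mice, 15 included a larger one, and in 11 of these the mice used different CDR3 bases or more than 1 set of them. Over all clonotypes 573 of 4247 were larger (13.5%), a share that counts each form in each mouse. Those found in 2 or more mice had more than 1 chance to include a larger one.

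Of those 15, 4 were larger clonotypes in each of 2 mice. They are printed with the CDR3 bases in capitals to show which bases the mice share.
TRBV2 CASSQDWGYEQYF TRBJ2-7, mouse 2: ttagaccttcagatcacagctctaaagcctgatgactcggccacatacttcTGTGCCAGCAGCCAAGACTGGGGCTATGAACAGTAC
TRBV2 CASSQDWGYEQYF TRBJ2-7, mouse 3: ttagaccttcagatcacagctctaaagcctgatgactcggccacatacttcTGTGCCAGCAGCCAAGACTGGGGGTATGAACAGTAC
TRBV3 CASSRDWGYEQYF TRBJ2-7, mouse 1: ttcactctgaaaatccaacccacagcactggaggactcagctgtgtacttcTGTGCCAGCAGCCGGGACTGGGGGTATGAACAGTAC
TRBV3 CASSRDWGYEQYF TRBJ2-7, mouse 2: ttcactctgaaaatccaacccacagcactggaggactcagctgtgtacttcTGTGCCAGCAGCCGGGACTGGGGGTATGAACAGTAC
TRBV3 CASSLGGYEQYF TRBJ2-7, mouse 1: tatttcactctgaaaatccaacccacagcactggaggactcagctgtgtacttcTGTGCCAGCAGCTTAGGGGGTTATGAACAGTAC
TRBV3 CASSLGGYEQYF TRBJ2-7, mouse 2: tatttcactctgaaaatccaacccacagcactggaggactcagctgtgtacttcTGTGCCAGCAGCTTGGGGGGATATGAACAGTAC
TRBV2 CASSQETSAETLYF TRBJ2-3, mouse 2: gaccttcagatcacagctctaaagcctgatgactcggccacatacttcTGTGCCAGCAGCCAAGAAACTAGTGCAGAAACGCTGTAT
TRBV2 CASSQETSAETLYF TRBJ2-3, mouse 3: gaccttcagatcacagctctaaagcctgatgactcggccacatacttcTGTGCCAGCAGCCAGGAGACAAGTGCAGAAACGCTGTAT
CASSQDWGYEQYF had 8 templates in mouse 2 and 8 in mouse 3 in the forms shown, all inferior, and its CDR3 bases differed at 1 of 36 positions. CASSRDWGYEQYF had the same 87 bases in mice 1 and 2, with 3 templates each, all superior, and mouse 1 held another form of 1 template. It was the only rearrangement in the larger class of more than 1 mouse. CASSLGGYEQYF had 3 templates in each of mice 1 and 2 in the forms shown, with 2 of 33 CDR3 bases different. Mouse 2 also held the 87 bases shown for mouse 1, with 1 template, and mouse 1 a further form of 2 templates. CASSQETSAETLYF had 3 templates in mouse 2, all superior, and 3 in mouse 3, all inferior, with 3 of 39 bases different. All 4 used TRBV2 or TRBV3, and 3 used TRBJ2-7. Among all 573 larger clonotypes, 111 used TRBV2, 58 used TRBV3 and 303 used TRBJ2-7 (52.9%).

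The other 11 were larger clonotypes in 1 mouse, and their templates are given here as sums over all forms in a mouse. TRBV15 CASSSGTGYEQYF TRBJ2-7 had 14 templates in mouse 2 and 2 in mouse 1, and a TRBV13-2 TRBJ2-7 clonotype had 11 in mouse 1 and 4 in mouse 2. TRBV2 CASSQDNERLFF TRBJ1-4 had 6 in mouse 3 and 3 in mouse 1, with the same CDR3 bases, and TRBV2 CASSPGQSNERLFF TRBJ1-4 had 5 in mouse 3 and 2 in mouse 2. TRBV26 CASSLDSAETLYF TRBJ2-3 had 7 in mouse 3 and 1 in mouse 1.

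No V or J segment of the larger clonotypes passed a test between superior and inferior samples. Larger clonotypes held 30.3%, 34.2% and 29.9% of the templates of the superior samples and 35.2%, 35.3% and 36.8% of the inferior ones, higher in the inferior sample of each mouse. This share uses the counts that chose the clonotypes and was not tested. The inferior sample was also the deeper one in mice 1 and 3 and the shallower in mouse 2. Among larger clonotypes listed in a sample, TRBV2 made up 17.6% ± 2.21 in superior and 16.3% ± 2.58 in inferior samples, and TRBJ2-7 49.9% ± 7.02 and 51.1% ± 8.04. Of 17 V segments tested with edgeR 0 passed (0%), and of 10 J segments 0 passed (0%), with none at an unadjusted p under 0.05. With the mouse as a replicate block both counts were also 0. TRBV2 differed by 0.08 ± 0.27 and TRBJ2-7 by -0.004 ± 0.191 on the log2 scale, superior minus inferior. The J segments with the widest difference in each direction were TRBJ2-5 at 0.84 ± 0.57 and TRBJ1-3 at -0.41 ± 0.36, and the V segments TRBV4 at 0.70 ± 0.76 and TRBV20 at -0.42 ± 0.44. A difference of these sizes could not be told from 0 with 3 samples a group, and a clonotype listed in both samples counted in both.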

How the data were processed

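The deposited count of each rearrangement is a whole number, and the deposited productive frequency, a fraction, equals it divided by its sample's sum. Per the submitters' processing notes the build is mm10; no aligner or caller is given in the sources used here. All 29 V and 14 J names matched RefSeq's table for GRCm38.p6, which gave the coordinates. Clonotypes, not templates, were counted per segment in each mouse and class and tested with edgeR 4.0.16 (R 4.3.3): quasi-likelihood, common dispersion, class size as library size, mouse as a block, segments of 10 or more clonotypes, Benjamini-Hochberg threshold 0.05. Standard errors come from the likelihood ratio at that dispersion, not from the quasi-likelihood test that gave the p-values. DESeq2 1.42.0 was an alternative. The mouse pairs the classes and its samples, which come from 1 animal; deviations of V use among larger clonotypes correlated at 0.575, 0.605 and 0.0873 between a mouse's samples.

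CDR3s that did not start with cysteine (41, none in the larger class) were left out of CDR3 features and 5 unresolved J calls from J use. The members and lists were chosen with earlier results of these data known. Named were the 8 most used V segments among larger clonotypes, those past the threshold and the 4 largest differences each way, all tested J and D segments, residues past the threshold and the 4 largest differences each way, the 4 largest clonotypes per mouse, and up to 10 shared between mice. The segment fits were also run on simulated counts with no spread between mice beyond counting error, a simpler setting than these data. That run cannot show how the fits handle differences between mice. The rest ran in Python 3.11.15 with scipy 1.17.1, pandas 2.3.3 and numpy 2.4.6.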

Additional observations from a re-analysis of the deposited data

How the results depend on the processing

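TRBJ2-7 kept its direction and its call in all 15 alternatives tried, with log2 differences of 1.63 to 3.01, and TRBV2 its direction in all 16 and its call in 15. Between the larger and single-template classes, 1 V segment passed, but 2 with the likelihood ratio test, 2 with no replicate block, 2 within TRBJ2-7 and 4 with 2 or more templates against 1; TRBV13-2 was among these in each case, lower. Leaving out a mouse gave 0 to 1 V and 5 to 9 J segments, the lowest without mouse 3. For D segments 1 passed with TMM factors and 2 each in inferior samples only, within TRBJ2-7 and without TRBJ2-7. With 2 or more templates 1 residue passed, tyrosine at position 7. The pairing by mouse as a replicate block left 0 calls between superior and inferior samples, and no replicate block left 10 J calls.

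Values without a test moved where the class limit did: the share listed in both samples, 19.02% as a mean of mice, was 10.7% from 2 and 38.2% from 5 templates. Directions changed for hydropathy (0.00060 merged, 0.00925 counted from the residue after the cysteine), the hydrophobic share (0.228 from 2 templates, 0.351 merged, 2.005 in superior samples only) and the cluster 2 share (-1.45 from 2 templates), all percentage points but hydropathy.

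Segments that had not passed changed sign on the log2 scale, as did TRBJ2-1. From 2 templates these were TRBV19 (0.038), TRBJ2-1 (0.086) and phenylalanine at position 6 (0.35), and from 5 templates TRBV1 (-0.79) and TRBV20 (-0.21). Merged, they were TRBV1 (-0.27), TRBV13-2 (0.54), TRBV16 (0.34), TRBV19 (0.020) and TRBV20 (-0.052). In superior samples only they were TRBV1 (-0.26), TRBJ1-2 (-0.43) and proline at position 7 (-0.40), and in inferior ones TRBV1 (-0.089). Within TRBJ2-7 TRBV5 was 0.46 and without it TRBV3 -0.36. Without TRBV2, TRBJ1-2 was -0.46 and TRBJ1-4 -0.011; against 1 or 2 templates TRBJ1-2 was -0.15. With TMM factors and DESeq2, TRBJ2-1 was 0.012 and 0.020. Leaving out a mouse gave -0.18 to 0.19 for TRBV3, -0.36 to 0.35 for TRBJ1-2 and -0.054 to 0.51 for TRBJ1-4. The cause was not tested.

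DESeq2 could not be fitted to the 2 D segments. The likelihood ratio test, the J weighting, the fits without TRBV2 and of D segments by TRBJ2-7, the split of the other-sample share by TRBJ2-7 and the CDR3s limited to CAS starts were chosen after seeing the data. With 667 to 1855 templates a sample, a clonotype of 1 template cannot be told from one missed in the other sample.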
